A study of Mus musculus with 6 samples.

Results

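The aldehyde dehydrogenase genes of mouse embryonic stem cells were followed across 6 RNA-seq libraries. The 10 genes described were found by symbol in a table of 13743 entries (Aldh1b1, Aldh2, Aldh3a2, Aldh4a1, Aldh5a1, Aldh6a1, Aldh7a1, Aldh9a1, Aldh16a1 and Aldh18a1), and each has 1 entry. The family was selected on the RPKM of Aldh1b1, which was lower than CTR after both treatments. Its differences from CTR are therefore given as values with no test, whereas the other 9 genes entered by name. All 10 had a mean of at least 1 RPKM (reads scaled for transcript length and for the mapped reads of the library) over the 6 libraries, the minimum for testing, and so belong to the 11428 entries tested.

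The cells are embryonic stem cells (ESCs) of the C57/129 background with genotype Dgcr8-/-, which all 3 groups share. Dgcr8 is the RNA-binding partner of Drosha, and cells without it make no canonical microRNAs. In the miR-294 group, 2 libraries came from cells given a miR-294 mimic, and in the siMbd2 group 2 libraries came from cells given siRNA against Mbd2, each at 50 nM. The CTR group, called mock in the deposited table, has 2 libraries of control transfections whose content is not stated. Transfection followed 16 h after plating, and all labels give 48 h as the time point. Nothing says whether the replicates were separate cultures, so the p-values measure only the spread between these libraries, which may be technical.

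Aldehyde dehydrogenases oxidize aldehydes to carboxylic acids with NAD+ or NADP+, removing reactive products of alcohol, lipid and amino acid breakdown. Some members make signals, such as retinoic acid, and others are fixed steps of a single amino acid pathway. High aldehyde dehydrogenase activity is widely used to mark stem and progenitor cells. MBD2 binds methylated CG dinucleotides and recruits the NuRD repressor complex, and miR-294 belongs to the miR-290 cluster that dominates the microRNAs of mouse ESCs.

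The sequences below are shown because both treatments can be read against them: the mimic pairs with 3' UTRs through its seed, and MBD2 recognises methylated CG. In the mature microRNA from RefSeq (GRCm38.p6, chr7:3220691-3220712, plus strand) the capitals mark the seed, bases 2 to 8.
mmu-miR-294-3p: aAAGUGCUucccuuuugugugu
For each gene the longest 3' UTR in GENCODE vM21 (GRCm38) was searched on the transcript strand for seed matches. A gene was classed by its longest match, either AGCACTTA with 8 bases or one of the 7-base strings inside it, AGCACTT and GCACTTA. Only 3 of the 10 members hold one. They are printed 5' to 3' with the match in capitals. Their positions are chr4:45804536-45804542 (plus strand) for Aldh1b1, chr11:61244941-61244947 (minus strand) for Aldh3a2 and chr1:167368412-167368418 (plus strand) for Aldh9a1.
Aldh1b1 site: tatcaaattatGCACTTAattaaggtatg
Aldh3a2 site: atgttgaacttGCACTTActgttgttata
Aldh9a1 site: ctgtcttccacAGCACTTtatctctgatt
The Aldh1b1 match starts at base 513 of a 581-base 3' UTR, that of Aldh3a2 at base 1407 of 1501, and that of Aldh9a1 at base 913 of 1033. The Aldh3a2 gene spans chr11:61223417-61267464, and its match lies well inside that span, far from the 3' end at the lower coordinate. It belongs to the annotated transcript with the longest 3' UTR, and which transcripts these cells use was not measured. Of 10801 tested genes with a 3' UTR, 3.69% hold the 8-base match, a further 13.9% AGCACTT and a further 3.3% GCACTTA, together 20.9%. The 3 members thus carry the shorter match classes, and none carries the 8-base match.

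Promoter windows of 300 bases, most of them upstream of the annotated start, were counted for CG, and 8 of the 10 members were found in the RefSeq table of GRCm38.p6. That of Aldh1b1 (chr4:45798772-45799071, plus strand) holds 7 CG dinucleotides, in capitals below, and that of Aldh3a2 (chr11:61267137-61267436, minus strand) holds 21.
Aldh1b1 promoter: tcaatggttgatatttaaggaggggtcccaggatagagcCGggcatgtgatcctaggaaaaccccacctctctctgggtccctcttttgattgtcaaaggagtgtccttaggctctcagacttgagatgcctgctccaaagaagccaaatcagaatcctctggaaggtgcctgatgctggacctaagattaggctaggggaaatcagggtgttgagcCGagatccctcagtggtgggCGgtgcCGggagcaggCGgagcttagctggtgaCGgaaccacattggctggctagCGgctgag
Aldh3a2 promoter: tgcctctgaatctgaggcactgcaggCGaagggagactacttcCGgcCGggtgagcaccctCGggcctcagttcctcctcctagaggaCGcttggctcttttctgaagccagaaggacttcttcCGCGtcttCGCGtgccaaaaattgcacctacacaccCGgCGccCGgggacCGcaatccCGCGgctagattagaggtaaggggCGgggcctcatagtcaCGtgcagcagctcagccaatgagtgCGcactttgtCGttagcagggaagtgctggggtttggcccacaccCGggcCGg
The median was 21 over 11123 windows of tested genes, and 14.4% of the windows had 7 or fewer. Aldh9a1 had 9 CG, Aldh4a1 11, Aldh16a1 22, Aldh18a1 23 and Aldh5a1 24, and the 2 windows of Aldh6a1 had 4 and 12. The windows of Aldh1b1, Aldh4a1, Aldh6a1 and Aldh9a1 thus lie under the lower quartile of 13 CG, and 1 window of Aldh6a1 is sparser than that of Aldh1b1, while Aldh3a2 is at the median. Methylation was not measured here.

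Mbd2, the gene targeted by the siRNA, was lower than CTR in siMbd2 and also in miR-294. It read 11.3 and 12.3 RPKM in miR-294 libraries and 7.33 and 6.34 in siMbd2 libraries, against 26.8 and 27.9 in CTR libraries. The ESC label was met by 9 of 9 marker genes, among them Pou5f1 (689 to 1059 RPKM over the libraries) and Nanog (206 to 372). Of 7 feeder fibroblast markers 2 had an entry, with summed levels of 3.56 to 3.89 RPKM in miR-294, 1.15 to 1.32 RPKM in siMbd2 and 1.53 to 1.64 in CTR. The summed RPKM over all entries was 488568 to 493079 in miR-294, 464663 to 470333 in siMbd2 and 429460 to 450520 in CTR. These sums are not sequencing depth, which is unknown. The median absolute log2 difference between the 2 libraries of a group was 0.063 in miR-294, 0.060 in siMbd2 and 0.136 in CTR, so the control pair was the noisiest.

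Aldh1b1 encodes a mitochondrial enzyme that oxidizes acetaldehyde and also retinaldehyde. Its level was 4.25 and 3.78 RPKM in miR-294 libraries and 13.0 and 10.4 RPKM in siMbd2 libraries, against 30.1 and 24.8 RPKM in CTR libraries. The 3 groups do not overlap, with miR-294 lowest, siMbd2 between and CTR highest. Group means were 4.02 ± 0.33 RPKM in miR-294, 11.7 ± 1.85 in siMbd2 and 27.5 ± 3.75 in CTR (SD, n = 2 each). The mean was 6.85-fold lower in miR-294 and 2.35-fold lower in siMbd2 than in CTR, and the authors' deposited table gives ratios of 0.15 and 0.43. On the log2(RPKM + 1) scale, which understates changes of low genes, the differences from CTR were -2.50 and -1.17. These put Aldh1b1 at place 8 from the lowest of 11428 tested genes for miR-294 and at place 14 for siMbd2. All of this is what led to the choice of the family.

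The difference between the treatments is taken without the CTR levels, although its error comes from the model of all 3 groups. The miR-294 and siMbd2 levels of Aldh1b1 both entered the choice of the family. Its p-value here is therefore not independent of that choice and is a description. Aldh1b1 was 1.34 lower on the log2 scale in miR-294 than in siMbd2 (difference -1.34, SE 0.12, 95% interval -1.62 to -1.05, limma adjusted p = 5.81e-05), with both miR-294 libraries under both siMbd2 libraries. Over all settings tried this difference ran from -1.51 to -1.12. The sum of the neural markers Pax6 and Sox1, 2 of 4 on their list with an entry, stood in the same order as Aldh1b1, at 7.28 and 7.69 RPKM in miR-294, 15.1 and 13.1 in siMbd2, and 17.9 and 18.3 in CTR. Sox1 alone shows that order, whereas Pax6 read 10.2 and 8.92 RPKM in siMbd2 libraries, around its 9.62 and 9.88 RPKM in CTR libraries. The sum of 4 endoderm markers with an entry, of 5 listed, also stood in the order of Aldh1b1, at 1.87 and 1.99 RPKM in miR-294, 2.45 and 2.03 in siMbd2, and 3.28 and 2.71 in CTR. Among them Gata4 alone shows that order, at 0.96 and 0.92 RPKM in miR-294, 2.07 and 1.83 in siMbd2, and 3.05 and 2.48 in CTR. Gata6 went the other way, at 0.70 and 0.77 RPKM in miR-294 against 0.15 and 0.18 in CTR. Sox17 and Foxa2 reached at most 0.14 and 0.17 RPKM and were not lowest in miR-294. Sums ran the other way for trophoblast markers (2 of 3 with an entry), at 4.77 and 5.36 RPKM in miR-294, 2.76 and 3.01 in siMbd2, and 1.57 and 1.73 in CTR. Mesoderm markers (3 of 4 with an entry) summed to 4.57 and 3.94 RPKM in miR-294, 2.40 and 2.75 in siMbd2, and 2.32 in each CTR library. No marker with an entry was at 0 in all libraries, and the part of these cell types in the result was not tested. In bulk RNA, fewer cells of a type and less RNA per cell cannot be told apart.

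**Figure D1:**
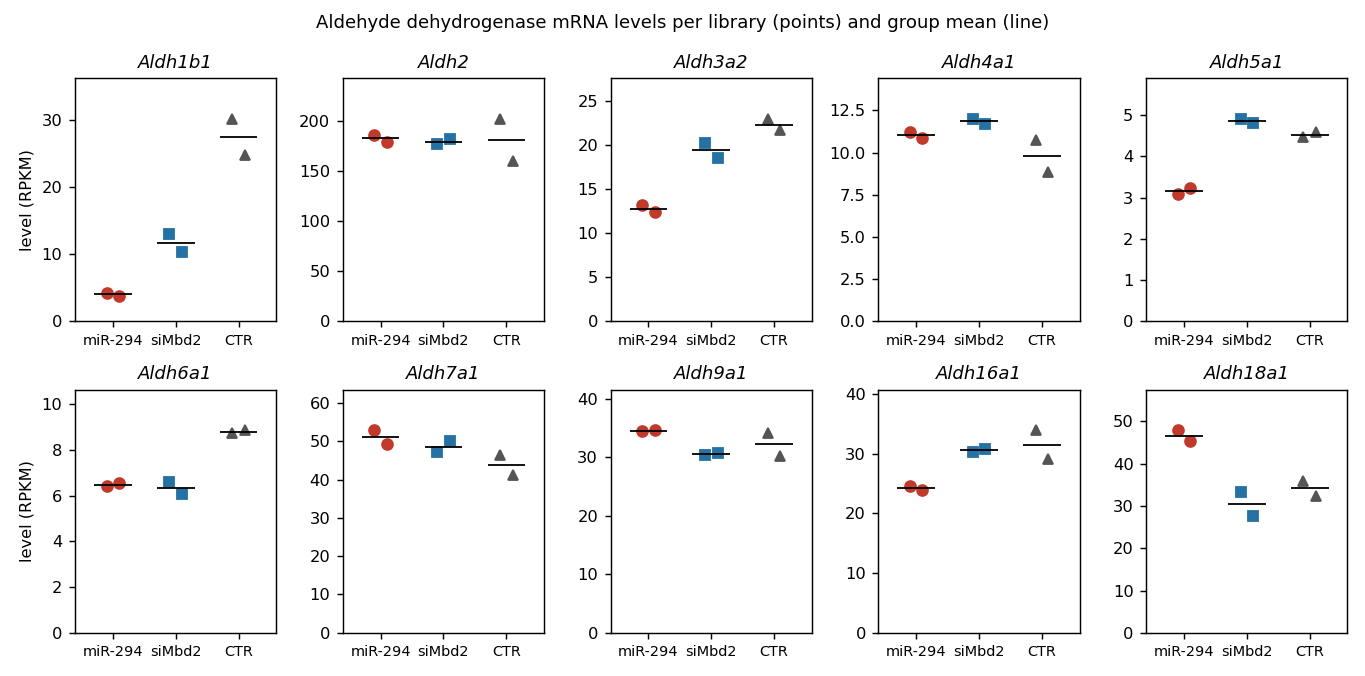
Level in RPKM (vertical axis, linear and from 0, own scale per gene) of the 10 members in each library; points are the 2 libraries of a group and lines the group mean. Aldh1b1 is at 4.25 and 3.78 RPKM in miR-294 and at 30.1 and 24.8 in CTR, whereas the Aldh2 points of all 3 groups overlap.

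Aldh2, the close relative of Aldh1b1 that clears acetaldehyde in mitochondria, was the most abundant member by far. It read 186 and 179 RPKM in miR-294 libraries and 176 and 182 in siMbd2 libraries, against 202 and 160 in CTR libraries. The CTR pair spans all other libraries, so the groups overlap. The log2 difference from CTR was 0.02 for miR-294 (95% interval -0.20 to 0.24, adjusted p = 0.858) and -0.01 for siMbd2 (95% interval -0.23 to 0.22, adjusted p = 0.969). With CTR replicate 2 left out the miR-294 difference was -0.15 (adjusted p = 0.0166), and with CTR replicate 1 left out it was 0.19 (adjusted p = 0.0054), and with quantile normalization it was -0.23 (adjusted p = 0.034), so its sign changes with the control library and the scaling; adjusted p-values over all settings ran from 0.0054 to 0.985. For each 100 RPKM of Aldh2 there were 2.29 and 2.11 RPKM of Aldh1b1 in miR-294 libraries, 7.38 and 5.73 in siMbd2 libraries, and 14.9 and 15.5 in CTR libraries. Since the group means of Aldh2 differ little, this ratio repeats the order of Aldh1b1, whose levels led to the choice of the family. It is a description only. The CTR libraries are closer to each other in it than in the level of Aldh2.

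The family's summed level was 384 and 369 RPKM in miR-294 libraries and 374 and 372 RPKM in siMbd2 libraries, against 429 and 362 RPKM in CTR libraries, which overlap the rest. Aldh2 made up 44.2% to 48.8% of the sum in all libraries. Aldh1b1 made up 1.11% and 1.02% of it in miR-294 libraries and 3.48% and 2.79% in siMbd2 libraries, against 7.02% and 6.87% in CTR libraries.

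RPKM values are per length, so levels of different genes can be ordered. In CTR, Aldh2 came first and Aldh7a1 second, each apart from the next. Aldh18a1, Aldh9a1, Aldh16a1 and Aldh1b1 followed with overlapping neighbours between 34.2 and 27.5 RPKM, then Aldh3a2 at 22.4, Aldh4a1 at 9.78, Aldh6a1 at 8.82 and Aldh5a1 at 4.53. Aldh4a1 and Aldh6a1 overlapped there. Aldh1b1 held place 9 of 10 in miR-294, apart from its neighbours Aldh6a1 and Aldh5a1. It held place 8 in siMbd2, where it overlapped Aldh4a1, and place 6 in CTR. Aldh18a1 held place 3 in miR-294, place 5 in siMbd2 and place 3 in CTR, but in siMbd2 its libraries spanned those of Aldh16a1 and Aldh9a1.

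**Figure D2:**
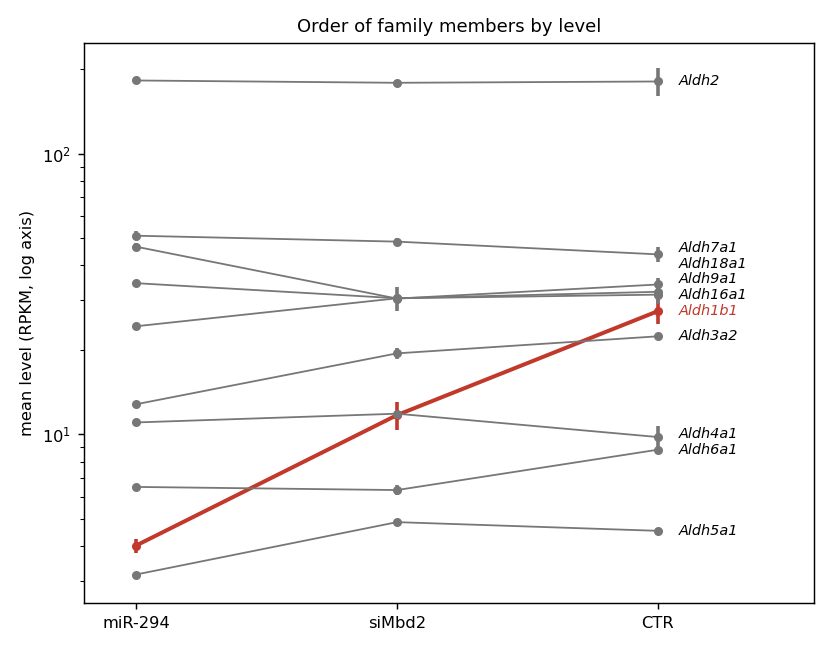
Mean level in RPKM (vertical axis, log scale) of each member in the miR-294, siMbd2 and CTR groups; thick vertical bars span the 2 libraries of a group, and lines only join the same gene. Aldh1b1, in red, lies at 4.02 RPKM in miR-294, 11.7 in siMbd2 and 27.5 in CTR, crossing Aldh3a2, Aldh4a1 and Aldh6a1, while Aldh2 and Aldh7a1 keep the upper places.

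Setting miR-294 against CTR addresses the effect of returning this microRNA to cells that cannot make it. Of the 9 members other than Aldh1b1, 4 fell (Aldh3a2, Aldh5a1, Aldh6a1 and Aldh16a1), 2 rose (Aldh18a1 and Aldh7a1) and 3 did not pass limma's test at an adjusted p under 0.05. Over all tested genes 64.5% passed, 36.8% lower and 27.7% higher, so the family's share is near the background. Of the called genes 42.9% were higher, against 51.3% with quantile normalization and 50.3% with median-of-ratios scaling. The members' count was 4 higher and 4 lower with median-of-ratios scaling, and 5 higher and 4 lower without CTR replicate 1. The median log2 difference of these 9 was 0.02, against -0.08 over all tested genes. The groups' libraries do not overlap for 8 of the 9, and for 81.0% of all tested genes.

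Aldh3a2 encodes the fatty aldehyde dehydrogenase of the endoplasmic reticulum and peroxisomes, which acts on aldehydes from fatty alcohols, ether lipids and sphingolipids. It read 13.2 and 12.4 RPKM in miR-294 libraries, against 23.0 and 21.7 RPKM in CTR libraries. The groups lie well apart, and Aldh3a2 fell by 0.76 on the log2 scale (SE 0.07, adjusted p = 4.69e-05). It passed the test in every setting tried, with differences of -0.80 to -0.66.

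Aldh6a1 and Aldh5a1 also fell. Aldh6a1, the CoA-dependent methylmalonate semialdehyde dehydrogenase of valine and thymine breakdown, read 6.41 and 6.58 RPKM in miR-294 libraries, against 8.76 and 8.87 in CTR libraries (log2 difference -0.39, adjusted p = 0.00285). Aldh5a1, which oxidizes succinate semialdehyde from the neurotransmitter GABA, read 3.09 and 3.24 RPKM in miR-294 libraries, against 4.46 and 4.60 in CTR libraries (log2 difference -0.41, adjusted p = 0.00252). In both genes the replicates of a group were close together and the groups did not overlap. With quantile normalization neither passed, at -0.19 (adjusted p = 0.0643) for Aldh6a1 and -0.17 (adjusted p = 0.108) for Aldh5a1, the highest adjusted p of any setting for each, where the lowest were 0.00206 and 0.00121.

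Aldh16a1 is the least studied member, a protein that in mammals lacks the catalytic cysteine of the family. It read 24.7 and 23.9 RPKM in miR-294 libraries, against 33.9 and 29.0 in CTR libraries (log2 difference -0.36, SE 0.08, adjusted p = 0.00407). The CTR libraries differ from each other by about as much as the nearer of them differs from miR-294. Its exons share bases with Pih1d1 on the opposite strand. The sources used here do not give whether counting used strand, so the value is uncertain. The same holds for Aldh2, Aldh5a1, Aldh6a1 and Aldh7a1, whose exons also share bases with genes on the opposite strand. Aldh4a1 shares exon bases with Gm21969 on the same strand, so its value is uncertain whether or not counting used strand. Pih1d1 itself rose by 0.51 (log2, adjusted p = 1.82e-04), at 38.3 and 39.1 RPKM in miR-294 libraries, against 27.6 and 26.0 in CTR libraries.

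Aldh18a1 and Aldh4a1 stand on opposite sides of proline. Aldh18a1 encodes pyrroline-5-carboxylate synthase, the first step from glutamate to proline, and Aldh4a1 the mitochondrial dehydrogenase that returns pyrroline-5-carboxylate to glutamate. Aldh18a1 read 47.9 and 45.4 RPKM in miR-294 libraries, against 36.0 and 32.4 in CTR libraries, and rose by 0.44 on the log2 scale (SE 0.10, adjusted p = 0.00364). Aldh4a1 read 11.2 and 10.9 RPKM in miR-294 libraries, against 10.7 and 8.84 in CTR libraries, with a log2 difference of 0.16 (95% interval -0.05 to 0.38, adjusted p = 0.159). The Aldh18a1 groups are well separated, while those of Aldh4a1 are divided only by a narrow gap. Without CTR replicate 1, Aldh4a1 stood at 0.29 (adjusted p = 0.00738, the lowest of a range that reaches 0.648). It also passed with quantile normalization, at 0.33 (adjusted p = 0.00944), and with median-of-ratios scaling, at 0.24 (adjusted p = 0.0349).

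Aldh7a1, antiquitin, oxidizes the semialdehyde of lysine breakdown, and Aldh9a1 a precursor of carnitine. Aldh7a1 read 52.9 and 49.2 RPKM in miR-294 libraries, against 46.4 and 41.2 in CTR libraries (log2 difference 0.22, adjusted p = 0.0308). The groups are close, and it kept the call in only 8 of 16 settings, the reported one included, with adjusted p-values from 0.00372 to 0.199. Without CTR replicate 2 the difference was 0.13 (adjusted p = 0.0884), and leaving out any other library but CTR replicate 1 also ended the call. Phax, whose exons share bases with those of Aldh7a1, rose by 0.36 with miR-294 and by 0.45 with siMbd2 (adjusted p = 8.22e-04 and 0.0013). It read 29.4 and 30.4 RPKM in miR-294 libraries and 32.1 and 31.6 in siMbd2 libraries, against 23.3 and 22.8 in CTR libraries. Aldh9a1 read 34.5 and 34.6 RPKM in miR-294 libraries, against 34.2 and 30.2 in CTR libraries, with a log2 difference of 0.10 (95% interval -0.06 to 0.26, adjusted p = 0.235). Without CTR replicate 1 it stood at 0.19 (adjusted p = 0.0103, in a range from that value to 0.794), and with median-of-ratios scaling at 0.18 (adjusted p = 0.0314).

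Set against the 3' UTR matches printed above, Aldh1b1 and Aldh3a2, whose longest annotated 3' UTRs hold GCACTTA, were lower than CTR. Aldh9a1, whose longest annotated 3' UTR holds AGCACTT, was not lower. The levels are per gene, and the share of transcripts that hold a match was not measured. Aldh5a1, Aldh6a1 and Aldh16a1 fell with no match in the window searched, the longest annotated 3' UTR. Aldh1b1 was selected for its lower level, so its match beside that level is a description only. A match describes these letters and does not show binding.

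**Figure D3:**
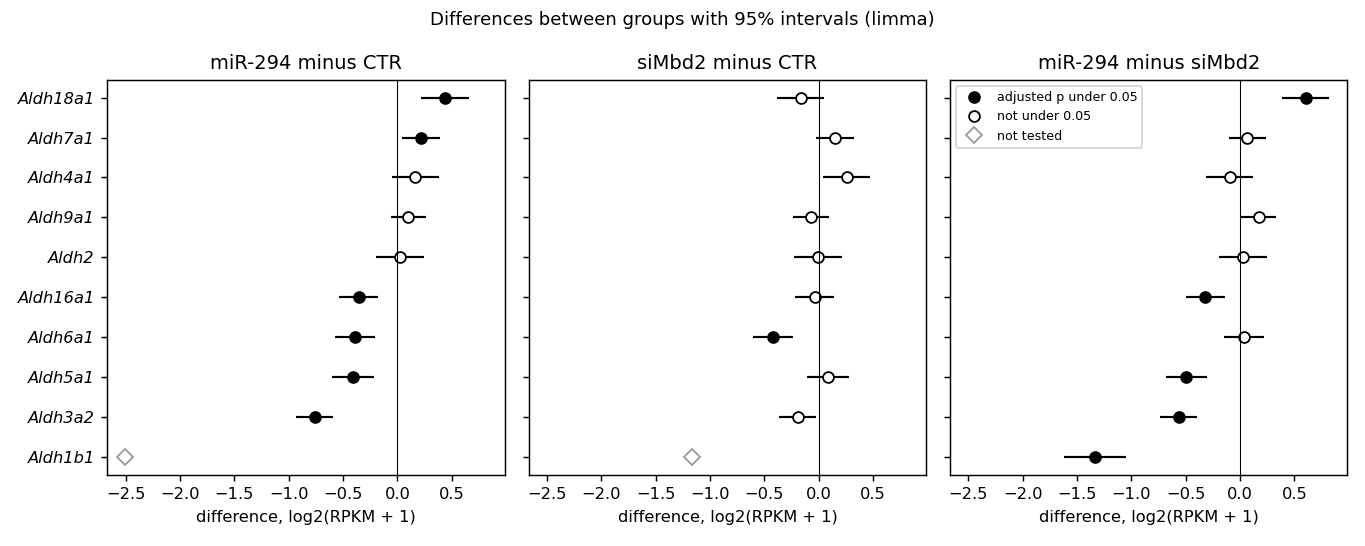
Difference in log2(RPKM + 1) between groups (horizontal axis) for each member in 3 comparisons, with 95% intervals from limma; filled circles have an adjusted p under 0.05, open circles do not, and grey diamonds are Aldh1b1 values with no test. Aldh3a2 and Aldh18a1 lie to either side of 0 in miR-294 minus CTR, at -0.76 and 0.44, and in siMbd2 minus CTR only Aldh6a1 is filled, at -0.42. Aldh1b1 is tested in miR-294 minus siMbd2, although its levels in both treatments led to the choice of the family.

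Setting siMbd2 against CTR addresses the effect of less Mbd2 in the absence of canonical microRNAs. Aldh6a1 was the 1 member of the 9 that passed the test, and it fell. Over all tested genes 34.4% passed, 14.9% lower and 19.5% higher. The median log2 difference of the 9 was -0.04, against 0.02 over all tested genes. The libraries of the groups do not overlap for 5 of the 9 and for 67.6% of all tested genes. With CTR replicate 1 or CTR replicate 2 left out 4 members passed each time, and without siMbd2 replicate 2 the count was 0. This comparison shares its CTR libraries with the one above.

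Aldh6a1 read 6.60 and 6.06 RPKM in siMbd2 libraries, against 8.76 and 8.87 RPKM in CTR libraries. The groups are clearly apart, with a log2 difference of -0.42 (SE 0.08, adjusted p = 0.00555). Without siMbd2 replicate 2 the difference was -0.37 and the adjusted p 0.0697, the highest in a range that starts at 0.00406. Its exons share bases with Bbof1 on the opposite strand, a gene with no value here.

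Aldh3a2 read 20.3 and 18.6 RPKM in siMbd2 libraries, against 23.0 and 21.7 in CTR libraries. The groups do not overlap but are near each other, and the log2 difference of -0.19 did not pass (95% interval -0.36 to -0.02, adjusted p = 0.0754). Aldh4a1 read 12.0 and 11.7 RPKM in siMbd2 libraries, against 10.7 and 8.84 in CTR libraries, a log2 difference of 0.26 that did not pass either (95% interval 0.04 to 0.47, adjusted p = 0.0638). Single settings brought each of these past the threshold, with adjusted p-values of 0.021 to 0.406 for Aldh3a2 and 0.00413 to 0.239 for Aldh4a1, so neither can be placed firmly.

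Aldh18a1 read 33.4 and 27.6 RPKM in siMbd2 libraries, against 36.0 and 32.4 in CTR libraries, where the groups overlap (log2 difference -0.17, 95% interval -0.38 to 0.05, adjusted p = 0.207). Aldh7a1 read 47.1 and 50.1 RPKM in siMbd2 libraries, against 46.4 and 41.2 in CTR libraries (log2 difference 0.15, 95% interval -0.02 to 0.32, adjusted p = 0.154). Its siMbd2 libraries are barely above the higher CTR library. Without CTR replicate 1, Aldh7a1 stood at 0.23 (adjusted p = 0.0194, with a range up to 0.527) and Aldh2 at 0.16 (adjusted p = 0.0174, with a range up to 0.973). Without CTR replicate 2, Aldh2 stood at -0.17 (adjusted p = 0.0166).

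Aldh5a1, Aldh9a1 and Aldh16a1 lay near CTR after Mbd2 was lowered. Aldh5a1 read 4.91 and 4.82 RPKM in siMbd2 libraries, against 4.46 and 4.60 in CTR libraries (log2 difference 0.08, 95% interval -0.10 to 0.27, adjusted p = 0.457). Aldh9a1 read 30.4 and 30.7 RPKM in siMbd2 libraries, against 34.2 and 30.2 in CTR libraries (log2 difference -0.07, 95% interval -0.23 to 0.09, adjusted p = 0.465). Its siMbd2 libraries fall between the CTR libraries. Without CTR replicate 2, Aldh9a1 stood at -0.16 (adjusted p = 0.0374, with a range up to 0.815). Aldh16a1 read 30.3 and 30.8 RPKM in siMbd2 libraries, against 33.9 and 29.0 in CTR libraries (log2 difference -0.04, 95% interval -0.22 to 0.14, adjusted p = 0.742).

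The direct comparison sets miR-294 against siMbd2 without CTR. Mbd2 was lower than CTR in both groups, and 1.73-fold higher in miR-294 than in siMbd2. The comparison therefore cannot separate less Mbd2 from what else the mimic did. Over all tested genes 57.4% passed, 35.5% lower and 21.9% higher in miR-294. Of the called genes 38.1% were higher, against 51.5% with quantile normalization and 50.6% with median-of-ratios scaling. Of the 10 members, 4 were lower in miR-294 (Aldh1b1, Aldh3a2, Aldh5a1 and Aldh16a1), 1 was higher (Aldh18a1) and 5 did not pass. Aldh1b1 is in this count although its levels in both treatments led to the choice of the family. The libraries do not overlap for 7 of the 10 and for 84.1% of all tested genes. The median log2 difference over the members was -0.03, against -0.08 over all tested genes.

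Aldh18a1 was higher in miR-294 than in siMbd2 by 0.60 (log2, SE 0.10, adjusted p = 8.30e-04), with 47.9 and 45.4 RPKM in miR-294 libraries, against 33.4 and 27.6 in siMbd2 libraries. It passed in every setting tried, with differences of 0.47 to 0.74. Aldh3a2 was lower by 0.57 (difference -0.57, adjusted p = 3.23e-04) and passed in every setting. Aldh5a1 stood at -0.49 (adjusted p = 0.00116) and Aldh16a1 at -0.32 (adjusted p = 0.00838), though Aldh16a1 did not pass without miR-294 replicate 2 (adjusted p = 0.0607, the highest of a range from 4.50e-04) or without siMbd2 replicate 2 (adjusted p = 0.0579).

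Aldh6a1, which fell against CTR with both treatments, read 6.41 and 6.58 RPKM in miR-294 libraries, against 6.60 and 6.06 in siMbd2 libraries. These overlap, and the log2 difference of 0.03 had a 95% interval of -0.15 to 0.22 (adjusted p = 0.747). With quantile normalization it was 0.22 (adjusted p = 0.0441, the lowest of a range up to 0.919). Aldh9a1 stood at 0.17 (95% interval 0.01 to 0.33, adjusted p = 0.065), with its miR-294 libraries above both siMbd2 libraries. It passed in 5 of the other 15 settings, including those without CTR replicate 1 (adjusted p = 0.00601) and without CTR replicate 2 (adjusted p = 0.00595), in a range from 0.00519 to 0.229. For Aldh2 (0.03, 95% interval -0.19 to 0.25), Aldh7a1 (0.07, 95% interval -0.10 to 0.24) and Aldh4a1 (-0.10, 95% interval -0.31 to 0.12) adjusted p-values were 0.827, 0.458 and 0.412.

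A further 7 genes of the family had entries outside the 10. The highest of them, Aldh3a1, averaged 3.99 RPKM over the 6 libraries, and the lowest member, Aldh5a1, averaged 4.19 RPKM, so the choice of members ends close to this level. Aldh3a1 encodes an aldehyde dehydrogenase best known as an abundant protein of the cornea. It read 1.55 and 1.51 RPKM in miR-294 libraries and 6.90 and 7.60 in siMbd2 libraries, against 2.94 and 3.42 in CTR libraries. It fell with miR-294 (log2 difference -0.72, adjusted p = 2.54e-04), rose with siMbd2 (0.98, adjusted p = 4.51e-04) and was lower in miR-294 than in siMbd2 (log2 difference -1.70, adjusted p = 7.16e-06). Its groups do not overlap, with siMbd2 highest and miR-294 lowest, the order that Aldh5a1 also shows among the members.

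The retinaldehyde dehydrogenase genes Aldh1a2 and Aldh1a3 were scarce. Aldh1a2, which makes retinoic acid in the early embryo, read 1.21 and 1.53 RPKM in miR-294 libraries and 0.98 and 0.86 in siMbd2 libraries, against 0.81 and 0.88 in CTR libraries. Its log2 difference from CTR was 0.36 with miR-294 and 0.06 with siMbd2. Its means were 1.37 RPKM in miR-294, 0.92 in siMbd2 and 0.845 in CTR. Aldh1a2 thus reached the minimum for testing only through its miR-294 level, and its differences are given with no test. Aldh1a3, of the same function, read 0.71 and 0.78 RPKM in miR-294 libraries and 0.23 in each siMbd2 library, against 0.27 and 0.48 in CTR libraries, too low to be tested. Aldh3b1 read 0.72 and 0.63 RPKM in miR-294 libraries and 1.52 and 1.01 in siMbd2 libraries, against 2.25 and 1.40 in CTR libraries. Its log2 difference from CTR was -0.74 with miR-294, given with no test because its CTR level helped it reach the minimum for testing. Aldh3b2 read 0.03 and 0.04 RPKM in miR-294 libraries and 0.33 in each siMbd2 library, against 0.51 and 0.64 in CTR libraries. The folate enzyme gene Aldh1l1 stayed under 1 RPKM in every library, and Aldh1l2, its mitochondrial counterpart, read 1.67 to 2.14 RPKM and passed no test.

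Genes that make, reduce or share substrates with the members were counted from lists by pathway. The share called in each list is to be read against 64.5% of all tested genes with miR-294 (27.7% higher, 36.8% lower) and 34.4% with siMbd2 (19.5% higher, 14.9% lower). Alcohol dehydrogenases and carbonyl reductases, which act on the same aldehydes, gave 6 higher and 2 lower of 13 tested with miR-294 (median log2 difference 0.10) and 2 higher and 2 lower with siMbd2 (median 0.05). These are 61.5% and 30.8% of the list, near the shares over all tested genes. Akr1b8 rose most with miR-294, by 1.76 (adjusted p = 4.21e-06), reading 6.12 and 5.85 RPKM in miR-294 libraries and 1.08 and 1.42 in siMbd2 libraries, against 1.06 and 1.07 in CTR libraries. Akr1b3, aldose reductase, read 163 and 160 RPKM in miR-294 libraries and 61.1 and 65.7 in siMbd2 libraries, against 54.7 and 50.9 in CTR libraries. It rose by 1.59 with miR-294 (adjusted p = 1.39e-06) and by 0.26 with siMbd2 (adjusted p = 0.0147). Adh5, which clears formaldehyde bound to glutathione, rose with miR-294 by 0.42 (adjusted p = 3.20e-04), to 118 and 119 RPKM in miR-294 libraries, against 92.3 and 84.9 in CTR libraries.

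For retinoid genes, 5 rose and 3 fell of 14 tested with miR-294, and 2 passed with siMbd2, both higher, or 57.1% and 14.3% of the list against 64.5% and 34.4% of all tested genes. Rarg, a retinoic acid receptor gene, read 128 and 123 RPKM in miR-294 libraries and 54.1 and 59.7 in siMbd2 libraries, against 31.2 and 29.3 in CTR libraries. The 3 groups are far apart, in the order opposite to that of Aldh1b1, and Rarg rose by 2.02 (adjusted p = 8.21e-07) with miR-294 and 0.89 (adjusted p = 1.96e-04) with siMbd2.

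Branched-chain amino acid and propionate genes, the pathway of Aldh6a1, gave 2 higher and 10 lower of 24 tested with miR-294 and 1 higher and 7 lower with siMbd2. These are 50% and 33.3% of the list, against 64.5% and 34.4% of all tested genes. Their medians were -0.13 and -0.11, against -0.08 and 0.02 over all tested genes. Hibch, which frees 3-hydroxyisobutyrate from CoA shortly before the step of Aldh6a1, read 8.85 and 7.13 RPKM in miR-294 libraries and 7.16 and 6.48 in siMbd2 libraries, against 11.2 and 10.8 in CTR libraries. It fell with both (log2 differences -0.42 and -0.61, adjusted p = 0.00772 and 0.00355). Hibadh, which makes the semialdehyde that Aldh6a1 oxidizes, fell by 0.69 (adjusted p = 2.52e-05) with miR-294 and by 0.19 (adjusted p = 0.0353) with siMbd2. The levels of Hibadh were 33.9 and 32.1 RPKM in miR-294 libraries and 47.7 and 46.2 in siMbd2 libraries, against 52.9 and 54.8 in CTR libraries.

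Around proline and glutamate, 3 rose and 3 fell of 9 tested with miR-294, and 2 rose and 3 fell with siMbd2, or 66.7% and 55.6% of the list against 64.5% and 34.4% of all tested genes. Prodh, proline oxidase, which feeds Aldh4a1, read 7.37 and 7.71 RPKM in miR-294 libraries and 5.0 and 4.69 in siMbd2 libraries, against 3.76 and 2.69 in CTR libraries, and rose with both (1.03 and 0.48, adjusted p = 1.33e-04 and 0.0178). Pycr1, the last step of proline synthesis after Aldh18a1, stood at 0.31 with miR-294 (adjusted p = 0.0832) and fell by 0.48 with siMbd2 (adjusted p = 0.0303). Glul, glutamine synthetase, rose with miR-294 by 1.12 (adjusted p = 2.95e-06) and with siMbd2 by 0.65 (adjusted p = 3.20e-04). Of 3 GABA and aspartate genes tested, 1 passed with miR-294 and 2 with siMbd2, each higher, or 33.3% and 66.7% of a very short list against 64.5% and 34.4% of all tested genes. Gad1, which makes GABA, was 1.40 higher on the log2 scale with siMbd2 than in CTR. It read 1.29 and 1.02 RPKM in miR-294 libraries and 3.53 and 3.97 in siMbd2 libraries, against 0.79 and 0.81 in CTR libraries. Its siMbd2 level helped Gad1 reach the minimum for testing, so this rise is given with no test, although the count above includes it.

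Of 5 lysine, choline and carnitine genes tested, 3 rose and 1 fell with miR-294, and 1 rose and 2 fell with siMbd2, or 80% and 60% of the list against 64.5% and 34.4% of all tested genes. Dhtkd1, of lysine breakdown after Aldh7a1, rose with miR-294 by 1.06 (adjusted p = 8.33e-05), at 22.9 and 21.7 RPKM in miR-294 libraries, against 11.8 and 8.83 in CTR libraries. Pipox, which oxidizes pipecolate from lysine, fell by 1.04 with miR-294 and by 0.50 with siMbd2 (adjusted p = 9.06e-06 and 0.00174). It read 27.5 and 25.8 RPKM in miR-294 libraries and 39.5 and 38.9 in siMbd2 libraries, against 59.0 and 52.6 in CTR libraries. Of 6 genes of lipid aldehyde sources tested, 5 passed with miR-294, each lower, and 1 rose and 2 fell with siMbd2, or 83.3% and 50% of the list against 64.5% and 34.4% of all tested genes. Far1, which reduces fatty acyl-CoA to the fatty alcohols upstream of Aldh3a2, read 24.8 and 25.7 RPKM in miR-294 libraries and 32.2 and 31.7 in siMbd2 libraries, against 38.6 and 45.4 in CTR libraries. It fell with both (-0.71 and -0.38, adjusted p = 1.02e-04 and 0.00846).

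Among the genes whose centred log2 profiles over the 6 libraries lay nearest to that of Aldh1b1 were Ttll6, Rrm2b, Zbp1 and Trim12c, with Euclidean distances of 0.23, 0.49, 0.52 and 0.59. Ttll6 read 2.26 and 1.86 RPKM in miR-294 libraries and 6.59 and 5.57 in siMbd2 libraries, against 15.1 and 12.9 in CTR libraries. These 4 share all libraries and their scaling with Aldh1b1, and the nearness is a description. Among the members, the nearest to Aldh1b1 was Aldh3a2 at a distance of 1.76, and the furthest was Aldh18a1 at 2.99. The closest pair in the family was Aldh2 and Aldh9a1, at 0.19. For the other 9 members the nearest tested gene lay at 0.04 to 0.12, such as Tet3 for Aldh3a2 (0.08) and Atg7 for Aldh18a1 (0.12).

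**Figure D4:**
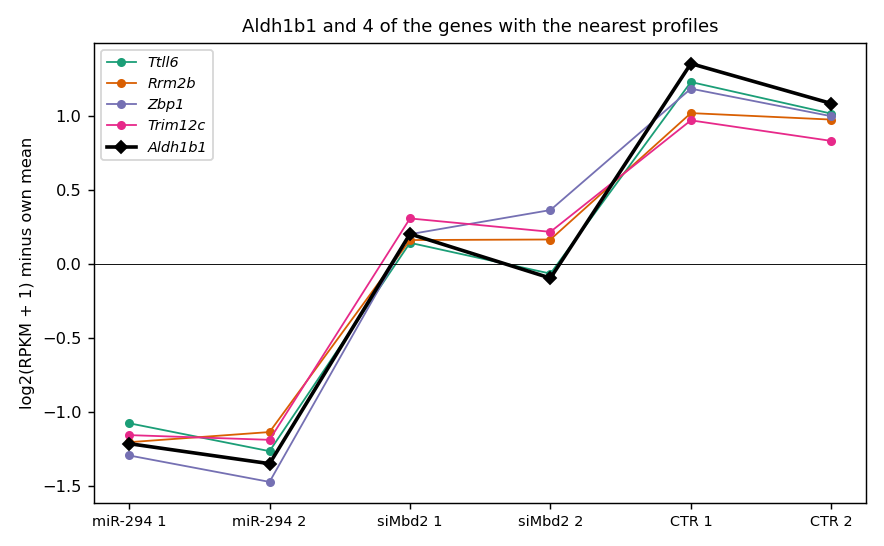
Log2(RPKM + 1) minus the gene's own mean (vertical axis) in the 6 libraries for Aldh1b1 (black diamonds) and 4 of the tested genes with the nearest profiles; lines only join the values of a gene. All 5 genes plotted are lowest in miR-294 and highest in CTR, and Ttll6 follows Aldh1b1 most closely, at a distance of 0.23.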

How the data were processed

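RNA-seq of 6 libraries in 3 groups was analysed from the deposited RPKM table, whose values the authors scaled by transcript length and mapped reads, per the file headers. The deposited ratio columns are the authors' fold of mean RPKM over CTR, per the file headers. The submitters' processing notes name CASAVA 1.7, STAR 2.3.0, Cufflinks and mm10, with no role for each; no source used here gives the annotation or strand setting. Each sample is described as averaging 2 lanes, per the labels. Depth is unknown, so no counting error is given.

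Entries with a mean of at least 1 RPKM were analysed as log2(RPKM + 1) in limma 3.58.1 (R 4.3.3), with 3 groups in 1 model (3 residual and 5.38 prior degrees of freedom), an intensity trend and Benjamini-Hochberg adjustment over all 11428. Tests were two-sided and calls had an adjusted p under 0.05; an exact permutation of 2 against 2 libraries cannot go below p = 0.333. The fit was tested on simulated data. Alternatives changed the pseudocount, filter, scaling, trend, groups, replicate block and libraries. The text names all members, other family genes with entries, up to 4 genes per list with the largest called changes, and the nearest profiles, except that some genes are not reported here; Pycr1 and Gad1 come from the siMbd2 part of that rule. Members and lists were chosen with earlier results of these data known. UTRs came from GENCODE vM21 (GRCm38, the assembly of mm10). Tables were handled in pandas 2.3.3 (Python 3.11.15).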

Additional observations from a re-analysis of the deposited data

How the results depend on the processing

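Over 447 repeated values of single members, 402 kept their direction and side of the threshold (for Aldh1b1 against CTR, moved by less than the spread between replicates). Aldh1b1 against CTR ranged from -2.74 to -2.37 for miR-294 and from -1.31 to -1.02 for siMbd2. Members other than Aldh1b1 called in siMbd2 vs CTR numbered 1 as reported, 2 with quantile normalization, 2 with median-of-ratios scaling, 3 with the replicate block, and 0 to 4 with a library left out (4 without either CTR library, 0 without siMbd2 replicate 2). Genes called over the table in that comparison were 3933, and 1410 to 5402 with a library left out. Signs turned for Aldh2 in miR-294 vs CTR with quantile normalization (-0.23, adjusted p = 0.034, in a range of 0.0054 to 0.985) and, with a library left out, between -0.15 and 0.19; in siMbd2 vs CTR, with a library left out, for Aldh2 (-0.17 to 0.16), Aldh9a1 (-0.16 to 0.015) and Aldh16a1 (-0.15 to 0.071); and in miR-294 vs siMbd2 for Aldh2 (-0.16) and Aldh4a1 (0.080) with quantile normalization and for Aldh6a1 (-0.020 to 0.086) with a library left out. The cause was not tested. Quantile normalization moved the median of all genes in miR-294 vs siMbd2 from -0.08 to 0.03. A group reduced to 1 library is assumed to vary like the others. Libraries with the same replicate number deviated alike only weakly (correlations of deviations 0.12, 0.13 and 0.02). With the replicate block 7605 genes were called in miR-294 vs CTR, 4305 in siMbd2 vs CTR and 6815 in miR-294 vs siMbd2. Without it the counts were lower in each, at 7366, 3933 and 6561. Aldh5a1 falls under the minimum mean of 5 RPKM. RPKM without counts limits what can be said of the genes under 1 RPKM.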
